A study of Mus musculus with 23 samples.

Results

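PS19 spinal cord was set against control spinal cord at 9 months of age, over RNA reads assigned to subfamilies of transposable elements and other repeats. The samples were taken by their labels for age and mouse model, which gave 13 of the 23 samples of the study, 7 from PS19 mice and 6 from control mice. PS19 mice carry a human tau transgene with a disease-linked mutation, which the mouse prion protein promoter drives in the nervous system, and develop neurofibrillary tau deposits with age. The PS19 animals were heterozygous and bred from Jackson Laboratory founders, and the controls were their wild-type littermates. The labels name no treatment, sex or litter for either group. Each sample was poly(A) RNA from the lysate of a whole cord, so that fewer cells of a type and less RNA per cell cannot be told apart in any value below.

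Repeats make up a large part of the mouse genome. LTR elements are the remains of endogenous retroviruses, and each full copy has an internal part with the viral genes between a pair of long terminal repeats, which hold the promoter. The ERV1 (class I), ERVK (class II) and ERVL (class III) families descend from different retroviruses, and MaLR elements are old relatives of ERVL. LINE elements encode their own reverse transcriptase, SINE elements borrow it, and DNA transposons are ancient in the mouse. Most copies are silenced by DNA methylation and repressive histone marks, and many lie in introns and untranslated ends of genes, so that a read assigned to a repeat need not come from a transcript that starts there. Which of these kinds of transcript the reads came from was not tested.

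The table gave 1 value per repeat subfamily and sample, a read number divided by a size factor of that sample, called normalized reads here. It held 0 rows that were not repeats, so the tissue could not be checked against marker genes, and neither could the transgene. Repeat reads per sample ranged from 338090 to 590194. Total repeat signal was lowest at 394920, had a median of 440274 and reached 539759 normalized reads in PS19, and stood at 370990, 395861 and 462762 in control. PS19 replicate 1 and control replicate 3 were the highest of their groups, and the groups overlapped (two-sided exact permutation p = 0.0723 for a log2 ratio of means of 0.15). The exact p was 0.0346 without PS19 replicate 4 and 0.0164 without control replicate 3. These were the lowest PS19 and the highest control value, so leaving out either necessarily widens the difference between groups. PS19 replicates 1 to 5 carried sample numbers from 131 to 156, below those of all controls (180 to 191), whereas replicates 6 and 7 were numbered 184 and 193. The labels do not say what the numbers stand for.

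Differences are given in 2 ways, because most subfamilies had a higher mean in PS19. On the deposited scaling 592 of the 767 subfamilies with a mean of at least 10 normalized reads did (77.2%), and the median log2 difference between PS19 and control was 0.18. Each sample was also scaled to its repeat reads by trimmed mean of M values (TMM), called scaling within repeats, and 414 then had a higher mean (54%), with a median of 0.02. This moved every subfamily down by a similar amount, between 0.11 and 0.16. Scaling within repeats asks which subfamilies differ beyond a general difference in repeat signal. That difference was not shared by all PS19 animals. Over all 767 on the deposited scaling, the median level relative to the control median was 0.57 in PS19 replicate 1. It was 0.30, 0.11, 0.17 and 0.29 in PS19 replicates 2, 3, 5 and 6, and -0.11 and 0.01 in replicates 4 and 7. Control replicate 3 stood at 0.30, and the other controls at -0.13 to 0.03.

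With the deposited scaling, 35 of 767 subfamilies passed an adjusted p of 0.05 in limma (4.56%). Of these, 32 were higher in PS19 (4.17%) and 3 lower (0.391%). Scaled within repeats, 31 passed (4.04%), 20 higher (2.61%) and 11 lower (1.43%). Other ways to scale within repeats gave splits of 19 higher and 17 lower (by the total alone), 13 and 10 (median of ratios) and 11 and 12 (quantile normalization). In the same direction in both scalings, 21 passed (2.74%), 18 of them higher and 3 lower. Groups did not overlap in 12 subfamilies on the deposited scaling (1.56%), 9 higher (1.17%) and 3 lower, and in 8 within repeats (1.04%), all higher. At a stricter threshold of 0.01, 7 passed on the deposited scaling (0.913%) and 5 within repeats (0.652%), all higher. Of the 21, 16 of the higher and all 3 of the lower were LTR elements, which made up 459 of the 767 tested.

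**Figure D1:**
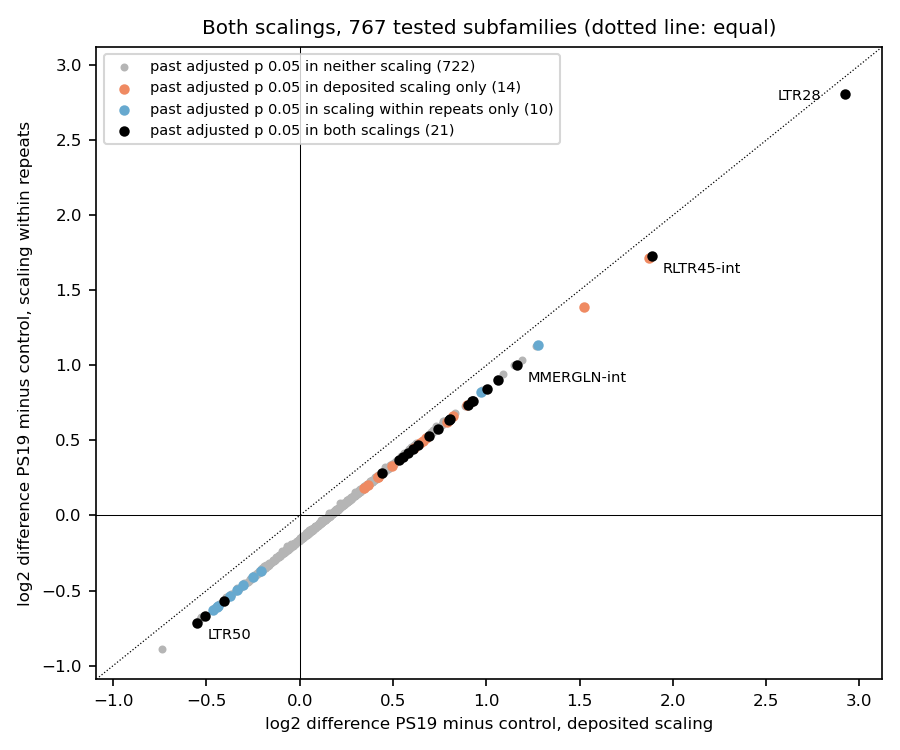
Log2 difference between PS19 and control on the deposited scaling (x axis) and after scaling within repeats (y axis), with 1 point per tested subfamily. All points lie below the dotted line of equality by 0.11 to 0.16; 21 subfamilies (black) passed in both scalings, 14 only in the deposited one and 10 only within repeats.

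In both scalings, 5 of the 21 passed whichever animal was left out, and they were the 5 that passed 0.01 within repeats. They were RLTR45-int, MMERGLN-int, ORR1A1-int, RLTR28 and MERV1_I-int. RLTR45-int is the internal part of an ERVK retrovirus. It had at least 122.8, a median of 233 and at most 517 normalized reads in PS19, and 52.2, 58.5 and 95.8 in control. Every PS19 animal lay above every control, and the spread was wide among PS19 animals, with replicate 5 highest and replicate 7 lowest. Its log2 fold change was 1.89 (SE 0.25, adjusted p 8.12e-05) on the deposited scaling and 1.73 (SE 0.25, adjusted p 0.000782) within repeats.

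MMERGLN-int, the internal part of a gammaretrovirus-like ERV1 element, stood at 278, 347 and 423 (lowest, median and highest) in PS19 and at 92.2, 143 and 272 in control. The groups did not overlap, but control replicate 3, at 271.7, came close to the lowest PS19 animal, at 277.7. The log2 fold change was 1.17 (SE 0.18) on the deposited scaling and 1.003 (SE 0.14, adjusted p 0.000684) within repeats. MERV1_I-int, another ERV1 internal part, was at 69.6, 79.6 and 118 in PS19 against 40.8, 45.2 and 51.3 in control, a log2 fold change of 0.90 (SE 0.17, adjusted p 0.00361) and 0.74 (SE 0.14, adjusted p 0.00645) in the 2 scalings. Here the controls were close together, and all PS19 animals lay clear of them.

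ORR1A1-int, an internal part of the MaLR elements, was at 284.2, 390 and 421 in PS19 and at 171, 207 and 284 in control. PS19 replicate 4 exceeded control replicate 4 by under 1 normalized read, and within repeats the groups overlapped. Its log2 fold change was 0.80 (SE 0.14, adjusted p 0.00118) on the deposited scaling and 0.64 (SE 0.12, adjusted p 0.00824) within repeats. RLTR28, an LTR of the ERVL family, was at 153, 198 and 227 in PS19 against 107, 116 and 127 in control. Every PS19 animal was above every control in both scalings, and the log2 fold changes were 0.70 (SE 0.13) and 0.53 (SE 0.10, adjusted p 0.00645).

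**Figure D2:**
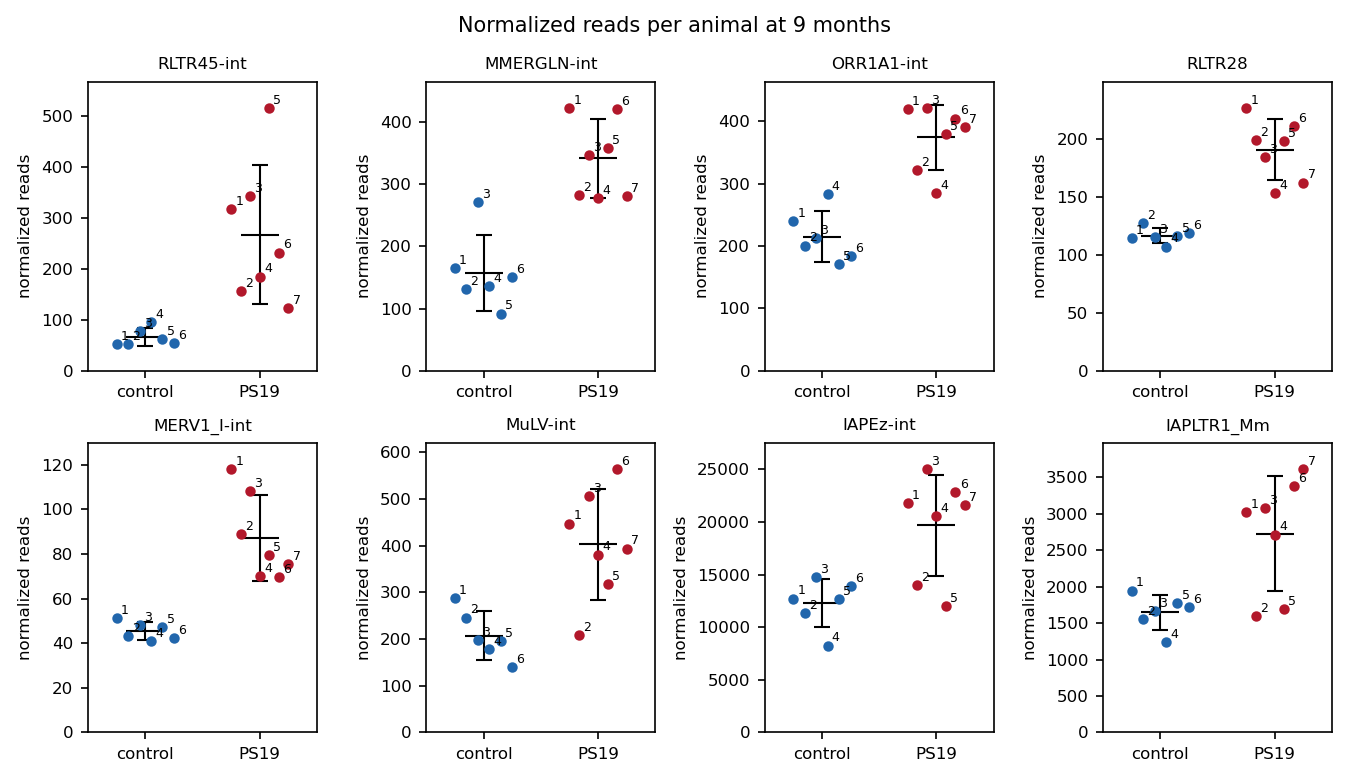
Normalized reads (y axis, from 0) of 8 subfamilies in each animal at 9 months, with replicate numbers beside the points and the mean and SD as black bars (control n = 6, PS19 n = 7). For RLTR45-int, MMERGLN-int, ORR1A1-int, RLTR28 and MERV1_I-int every PS19 animal lies above every control, whereas for MuLV-int replicate 2, and for IAPEz-int and IAPLTR1_Mm replicates 2 and 5, lie among the controls.

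Murine leukemia virus-like elements are gammaretroviruses of the ERV1 family, and some copies in laboratory mice are still intact. MuLV-int rose in PS19, at 208, 394 and 563 against 139, 196 and 288 in control. Replicate 2 was the PS19 animal within the control range. The log2 fold change was 0.93 (SE 0.19, adjusted p 0.00718), and 0.77 (SE 0.21) within repeats, where the adjusted p of 0.0497 was just past the threshold and was kept in 1 of 13 fits that each left out an animal. RLTR4_Mm, paired here as its LTR, did not pass, at 537 ± 94.5 (SD, n = 7) against 512 ± 66.6 (SD, n = 6). RLTR4_MM-int had the largest mean of these elements, 6680 ± 1009 against 6205 ± 1050, with a log2 difference of 0.11 (adjusted p 0.549). RLTR6-int had a log2 difference of 0.63 (adjusted p 0.0960) and its LTR, RLTR6_Mm, one of 0.09 (adjusted p 0.854). In all, 2 of the 8 tested subfamilies of this kind passed, both higher, where 4.17% of all 767 were called higher on the deposited scaling and 2.61% within repeats. All 8 had a positive difference on the deposited scaling, where 77.2% of all did. Within repeats 5 of 8 had, a share near the 54% over all.

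Intracisternal A particles (IAP) are ERVK elements and among the most active retrotransposons of the mouse. IAPEz-int, their main internal part, had the largest mean of all LTR subfamilies, at 12003, 21634 and 25010 in PS19 and 8247, 12714 and 14730 in control. PS19 replicates 2 and 5, at 14002 and 12003, were within the control range, and the other 5 were at 20541 to 25010, above all controls. Within repeats the same pair was at 12304 and 11560 against 9076 to 15369 in control, and the other 5 at 16087 to 24871. IAPLTR1_Mm, an IAP LTR, showed the same pattern, with 1592 and 1696 in replicates 2 and 5, 2714 to 3609 in the other PS19 animals and 1242 to 1945 in control. Both passed on the deposited scaling, with log2 fold changes of 0.66 (SE 0.15, adjusted p 0.0131) and 0.68 (SE 0.16, adjusted p 0.0189). Neither passed within repeats in limma (0.50, adjusted p 0.0999, and 0.51, adjusted p 0.133). On recovered reads within repeats, IAPEz-int passed in DESeq2 (0.54, adjusted p 0.0292) and not in edgeR (0.54, adjusted p 0.0774).

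The other IAP subfamilies did not pass in limma in either scaling. Of 25 IAP subfamilies listed, 18 were tested, and 2 passed on the deposited scaling, both higher (IAPEz-int and IAPLTR1_Mm), where 4.17% of all 767 were called higher. There 16 of the 18 had a positive difference (77.2% over all 767), with a median of 0.39 against 0.18. Within repeats 12 had (54% over all), with a median of 0.24 against 0.02. IAPEY3-int had a log2 difference of 0.89 (adjusted p 0.171), IAP-d-int of 0.48 (adjusted p 0.191), IAPLTR3-int of 0.48 (adjusted p 0.356) and IAPLTR2b of 0.36 (adjusted p 0.260). IAPLTR2_Mm (0.13) and IAPLTR1a_Mm (0.01) lay near 0. Over the whole list on the deposited scaling, PS19 replicates 2 and 5 were above the control median in 12 and 11 of the 18. The other PS19 animals were above it in 10 to 16 and the controls in 4 to 14. Within repeats the ranges were 9 to 15 in PS19 and 6 to 12 in control, so the groups overlapped in both scalings.

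Other ERVK elements passed in both scalings. RLTR19-int and RLTR19, an internal part and the LTR of the same name, both rose. RLTR19-int was at 508, 611 and 724 in PS19 against 403, 457 and 516 in control, with log2 fold changes of 0.44 (adjusted p 0.0207) and 0.28 (adjusted p 0.0454). RLTR19 was at 57.3, 71.8 and 119.8 against 27.5, 45.6 and 50.4, with 0.80 (adjusted p 0.0238) and 0.64 (adjusted p 0.0495). The internal part overlapped between groups, as PS19 replicate 4 was below control replicate 3, and the LTR did not. Within repeats these calls were kept in 2 and 0 of 13 fits that left out an animal. RLTR21 (0.63, adjusted p 0.0184), RLTR20A2B_MM (1.003, adjusted p 0.0350) and RMER3D-int (0.93, adjusted p 0.0195) were the other ERVK subfamilies higher in both scalings, at 0.47, 0.85 and 0.77 within repeats. RMER3D-int was at 38.4, 72.0 and 104 in PS19 against 26.1, 33.6 and 51.4 in control, and PS19 replicate 7 alone was inside the control range.

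Among ERV1 elements, LTR28 and RLTR30D2_MM also passed in both scalings. LTR28 had few reads, 3 to 62 recovered reads in PS19 and 0 to 8 in control, of which 2 samples had 0. Its level was 3.29, 16.8 and 48.7 normalized reads in PS19 and 0, 1.07 and 8.06 in control, with PS19 replicate 7 below control replicate 6. The fitted log2 fold change of 2.92 (SE 0.58, adjusted p 0.00558) depends on the number added before taking logs, and was 3.38 with 0.5 and 1.73 with 5. Within repeats it was 2.81 (adjusted p 0.0177), and 0.0622 was the adjusted p without PS19 replicate 5. RLTR30D2_MM was at 35.5, 64.9 and 83.9 against 18.1, 27.7 and 52.5, with log2 fold changes of 1.06 (adjusted p 0.0153) and 0.90 (adjusted p 0.0223). PS19 replicates 4 and 7 were below control replicate 3 for RLTR30D2_MM.

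The remaining higher calls in both scalings came from ERVL, MaLR, LINE and DNA elements. RMER10B (0.61, adjusted p 0.0434), an ERVL LTR, overlapped on the deposited scaling and not within repeats. MTC-int (0.58, adjusted p 0.0419) and ORR1G (0.53, adjusted p 0.0264) are MaLR elements. Lx6 (0.55, adjusted p 0.0437), a rodent-specific L1 subfamily, was the LINE called in both, and MER20B (0.74, adjusted p 0.0330), a hAT-Charlie element, the DNA transposon. Within repeats these were at 0.44, 0.42, 0.37, 0.39 and 0.58. Adjusted p there was 0.0297 to 0.0450, and the calls were kept in 2, 5, 3, 4 and 4 of the 13 fits that left out an animal.

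In both scalings, 3 subfamilies fell in PS19. RMER17C2, an ERVK LTR, was at 750, 958 and 1239 in PS19 and at 1254, 1406 and 1527 in control, with log2 fold changes of -0.51 (SE 0.11, adjusted p 0.0131) and -0.67 (SE 0.16, adjusted p 0.0297). LTR81, of the ancient Gypsy family, was at 356, 448 and 535 against 563, 592 and 682, with -0.41 (SE 0.11, adjusted p 0.0330) and -0.57 (SE 0.13, adjusted p 0.0223). For both, every PS19 animal was below every control on the deposited scaling, and the groups overlapped within repeats. LTR50, of the ERVL family, was at 544, 628 and 853 against 740, 964 and 1183, with -0.55 (SE 0.12, adjusted p 0.0146) and -0.71 (SE 0.18, adjusted p 0.0449), and overlapped in both scalings. Of the 13 fits that left out an animal, RMER17C2, LTR81 and LTR50 passed in 13, 5 and 12 on the deposited scaling. Within repeats they passed in 6, 9 and 3.

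Within repeats, 8 more subfamilies fell. They were MER81, MLT1G3, LTR48, RMER17A2, RLTR51A_Mm, L1ME3D, MER21B and LTR33A_, with log2 fold changes from -0.63 for MER81 (adjusted p 0.0112) to -0.37 for RLTR51A_Mm (adjusted p 0.0430). LTR48 did not pass in edgeR (adjusted p 0.0502). On the deposited scaling their differences were -0.47 for MER81 and -0.21 for RLTR51A_Mm, which did not pass. LTR33A_ did not overlap between groups on the deposited scaling, at 143 to 216 in PS19 and 219 to 255 in control. The scaling factors of the animals are given beside these calls. Over the 11 lower calls, the median level relative to the control median, within repeats, was -0.98 in PS19 replicate 1, whose scaling factor was the highest at 1.36, and -0.34 and -0.23 in PS19 replicates 4 and 7, whose factors were 0.869 and 0.940. PS19 replicate 5, with a factor of 1.04, stood at -0.80. Among controls it was -0.35 in replicate 3, with a factor of 1.14, and 0.14 in replicate 5, with the lowest factor of 0.827. The part of the total signal in these calls was not tested. The same medians on the deposited scaling were -0.45 in PS19 replicate 1, -0.67 in replicate 5, -0.42 and -0.22 in PS19 replicates 4 and 7, -0.04 in control replicate 3 and -0.02 in control replicate 5.

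Scaling within repeats ended 14 of the 32 higher calls, with adjusted p there from 0.0557 to 0.363. All 14 kept a positive difference. Among them were 4 DNA transposons, Charlie8 (0.35 on the deposited scaling, 0.18 within repeats), Charlie5 (0.50 and 0.33), MER3 (0.37 and 0.20) and MamTip2 (0.42 and 0.26), and the LINE subfamily L1MD2 (0.42 and 0.26). Charlie8 was at 887, 1031 and 1094 in PS19 against 741, 786 and 839 in control, without overlap on the deposited scaling. RLTR45, the LTR named like RLTR45-int, was another, at 73.5, 101.6 and 114 against 48.4, 61.1 and 106, with log2 fold changes of 0.64 (adjusted p 0.0437) and 0.48 (adjusted p 0.0630 in limma, 0.0292 in DESeq2). Within repeats alone, 2 higher calls were added, MTE2a-int (0.82, adjusted p 0.0495), with 16 to 36 recovered reads in PS19 and 7 to 15 in control, and RLTR16C_MM (1.14, adjusted p 0.0497), with 10 to 21 and 3 to 12.

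By group, 25 of the 32 higher calls were LTR elements, which were 459 of the 767 tested. That was 5.45% of LTR subfamilies against 4.17% of all tested, and within repeats 3.92% against 2.61%. Of 144 internal parts of LTR elements, 98 were tested, 10 of which passed as higher (10.2% against 4.17% of all tested) and 0 as lower. Their median log2 difference was 0.31 against 0.18 over all 767, and within repeats 0.15 against 0.02. Within repeats 9 were higher (9.18% against 2.61% of all tested) and 0 lower. Non-internal parts of class LTR, mostly long terminal repeats, had a median of 0.17, and of 0.01 within repeats. Of 361 tested, 15 were higher (4.16%, near the share over all) and 3 lower (0.831% against 0.391%). Within repeats 9 were higher (2.49% against 2.61%) and 9 lower (2.49% against 1.43%). By family, on the deposited scaling, 4 of 40 ERVK internal parts were higher (10%, median 0.39). So were 4 of 15 ERV1 internal parts (26.7%, median 0.23) and 0 of 9 ERVL internal parts (median 0.15), beside 4.17% of all tested. The other higher internal parts, ORR1A1-int and MTC-int, are MaLR elements. Within repeats 3 of 40 ERVK (7.5%), 3 of 15 ERV1 (20%) and 0 of 9 ERVL internal parts were higher, beside 2.61% of all tested. These counts are descriptions, as subfamilies of a family share sequence and the groups were chosen with results of these data known.

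**Figure D3:**
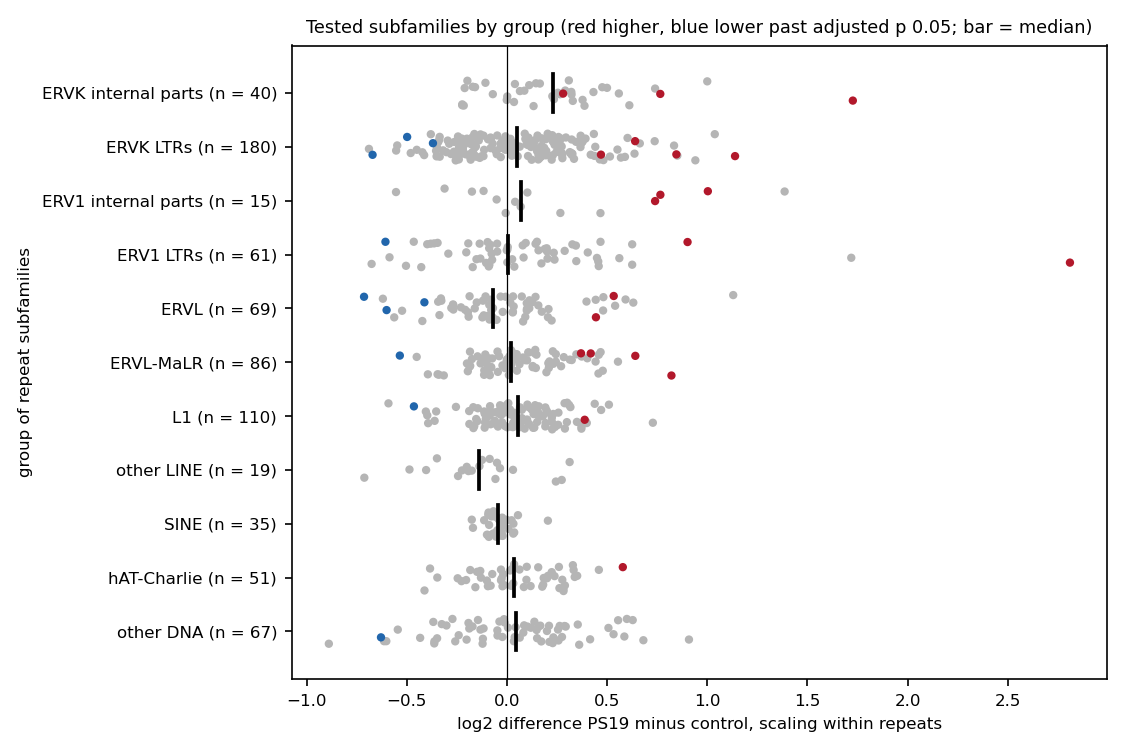
Log2 difference between PS19 and control after scaling within repeats (x axis) for each tested subfamily, by group (y axis), with the median as a black bar. Here LTRs means all subfamilies of a family that are not internal parts. ERVK internal parts have a median of 0.23, SINE elements lie in a narrow band around -0.05, and red and blue points mark subfamilies higher and lower past the threshold.

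Several well-known active elements did not pass in limma in either scaling. ETn and MusD elements, ERVK retrotransposons that still insert in laboratory strains, gave 0 calls of 5 tested, too few to set against the 4.56% called over all subfamilies. MMETn-int was at 188 ± 63.7 (SD, n = 7) against 122.4 ± 47.0 (SD, n = 6) with an adjusted p of 0.0960, ETnERV-int at 130.0 ± 58.4 against 101.4 ± 16.7 and ETnERV2-int at 35.4 ± 15.2 against 31.0 ± 13.9, and their LTR RLTRETN_Mm at 64.8 ± 18.5 against 63.3 ± 9.02. MMERVK10C-int, an ERVK internal part, had a log2 difference of 0.45 (adjusted p 0.256) and RLTR10C, paired with it, of -0.06. MERVL-int, the internal part of an ERVL retrovirus known from early embryos, was at 300 ± 84.2 against 200 ± 46.0 (0.56, adjusted p 0.0855 in limma). DESeq2 called it in both scalings, with an adjusted p of 0.0338 and, within repeats, 0.0488. Its LTR MT2_Mm was at 265 ± 35.6 against 223 ± 42.8 (0.26, adjusted p 0.277).

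Young mouse L1 elements gave 0 calls of 6 tested in limma, too few to set against that 4.56%. All 6 were positive in both scalings, beside 77.2% and 54% of all subfamilies, with a median of 0.34 and 0.17. L1Md_A was at 4548 ± 937 against 3956 ± 711 (adjusted p 0.348) and L1Md_T at 1385 ± 401 against 1058 ± 244 (adjusted p 0.204). L1Md_F2 had a log2 difference of 0.31 (adjusted p 0.161) and L1Md_Gf, with a mean of 28.2, of 0.88 (adjusted p 0.0881). All 35 SINE subfamilies were tested and 0 passed in limma, a count near the 4.56% called over all subfamilies. B1_Mm stood at 4087 ± 537 against 3557 ± 310 (log2 difference 0.19), B2_Mm2 at 8683 ± 1925 against 7464 ± 870 (0.20) and B2_Mm1a at 1708 ± 355 against 1472 ± 118 (0.20), and within repeats each was at 0.03 or 0.04. The most abundant SINE subfamilies, ID_B1 (0.10), B3 (0.12) and B1_Mus1 (0.14), likewise were at -0.07, -0.04 and -0.03 within repeats. For LINE elements the most abundant were L2b (-0.06 on the deposited scaling), L1Md_A (0.19) and L1MEi (0.00), and for DNA transposons URR1A (0.14), URR1B (0.15) and RMER30 (-0.22), none of which passed in limma. Within repeats RMER30 passed in DESeq2 (-0.38, adjusted p 0.0488) and not in limma (-0.38, adjusted p 0.0845). MLT1A1 (-0.01), an abundant MaLR LTR, and MurSatRep1 (0.33, adjusted p 0.0960), YREP_Mm (0.22) and UCON26 (-0.16), the most abundant subfamilies of class Unknown, did not pass either.

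An internal part and its LTR can be compared within a sample, where a scaling factor cancels except through the 1 added before taking logs. Of 74 pairs in the table, 48 had both members tested, and the internal part had the larger log2 difference in 34. The log2 ratio of internal part to LTR differed between groups in 4 pairs (two-sided exact permutation test over animals, adjusted over the 48 pairs, which share sequence). For RLTR45-int over RLTR45 it was 0.47, 1.11 and 2.33 (lowest, median and highest) in PS19 and -0.44, -0.09 and 0.97 in control, a difference of 1.25 (exact p = 0.00408, adjusted 0.0490), with overlapping groups. For MuLV-int over RLTR4_Mm the difference was 0.87 (exact p = 0.00175, adjusted 0.0280), again with overlapping groups. RLTR4_MM-int, whose name matches that LTR except in case, was not among the pairs, so its ratio was not tested. Its log2 difference on the deposited scaling was 0.11, beside 0.06 for RLTR4_Mm. MTC-int over MTC (0.41) and MTE2a-int over MTE2a (0.92) did not overlap between groups, with an exact p of 0.000583, adjusted 0.0140, for each. The MTC-int groups nearly touched, with a lowest PS19 ratio of -2.702 and a highest control ratio of -2.705. MTE2a-int had 16 to 36 recovered reads in PS19 and 7 to 15 in control, so the added 1 weighs more in its ratio. By contrast the ratio of IAPEz-int to IAPLTR1_Mm was 2.87 in PS19 and 2.89 in control (difference -0.01, exact p = 0.891, adjusted 0.916). The ratio of RLTR19-int to RLTR19 differed by -0.36 (exact p = 0.131, adjusted 0.366).

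**Figure D4:**
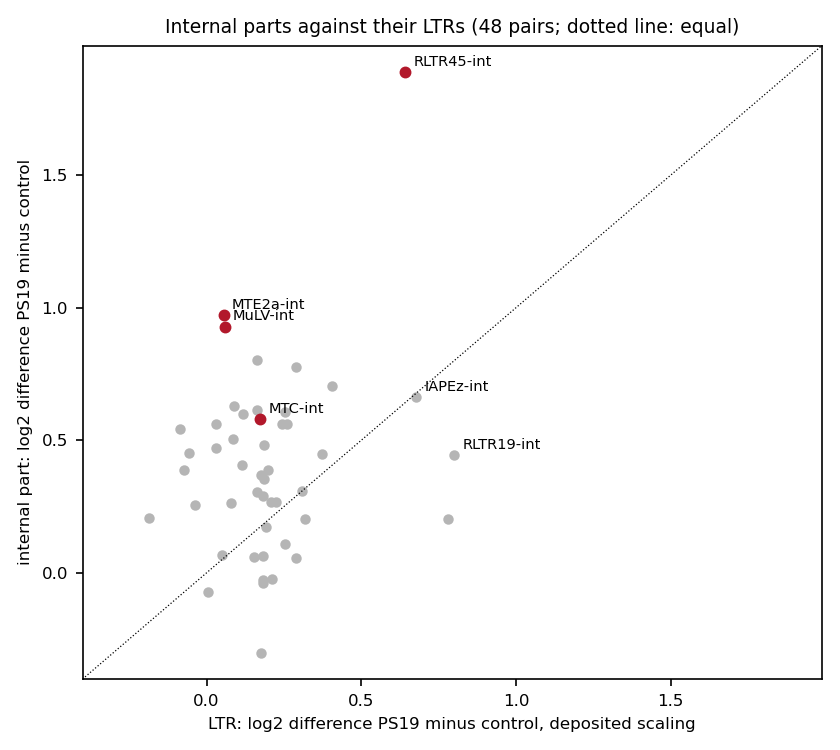
Log2 difference between PS19 and control on the deposited scaling for the LTR (x axis) and the internal part (y axis) of 48 pairs. In 34 pairs the point lies above the dotted line of equality, and the 4 red points, RLTR45-int, MuLV-int, MTC-int and MTE2a-int, are the pairs whose ratio differed between groups past an adjusted exact p of 0.05.

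Animals can be compared over the called subfamilies as a description. Over the 18 subfamilies higher in both scalings, all of which were chosen for this difference, the median level relative to the control median was 0.52 to 0.77 (log2, within repeats) in each of the 7 PS19 animals and -0.05 to 0.03 in the controls. Each PS19 animal was above all controls in 13 to 18 of the 18, beside 116 to 189 of all 767. PS19 replicate 5 was the highest of the 13 animals in 7 of the 18, beside 59 of all 767. PS19 replicate 1 was, on the deposited scaling, highest in 11 of the 18, beside 348 of all 767, with a median of 1.28 above the control median, and replicates 4 (0.43) and 7 (0.54) were the lowest PS19 animals. Control replicate 3 stood at 0.29 there, and at 0.30 over all 767. The animals were not ordered alike by all elements, as replicate 5 had the highest RLTR45-int and the lowest IAPEz-int of the PS19 group.

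**Figure D5:**
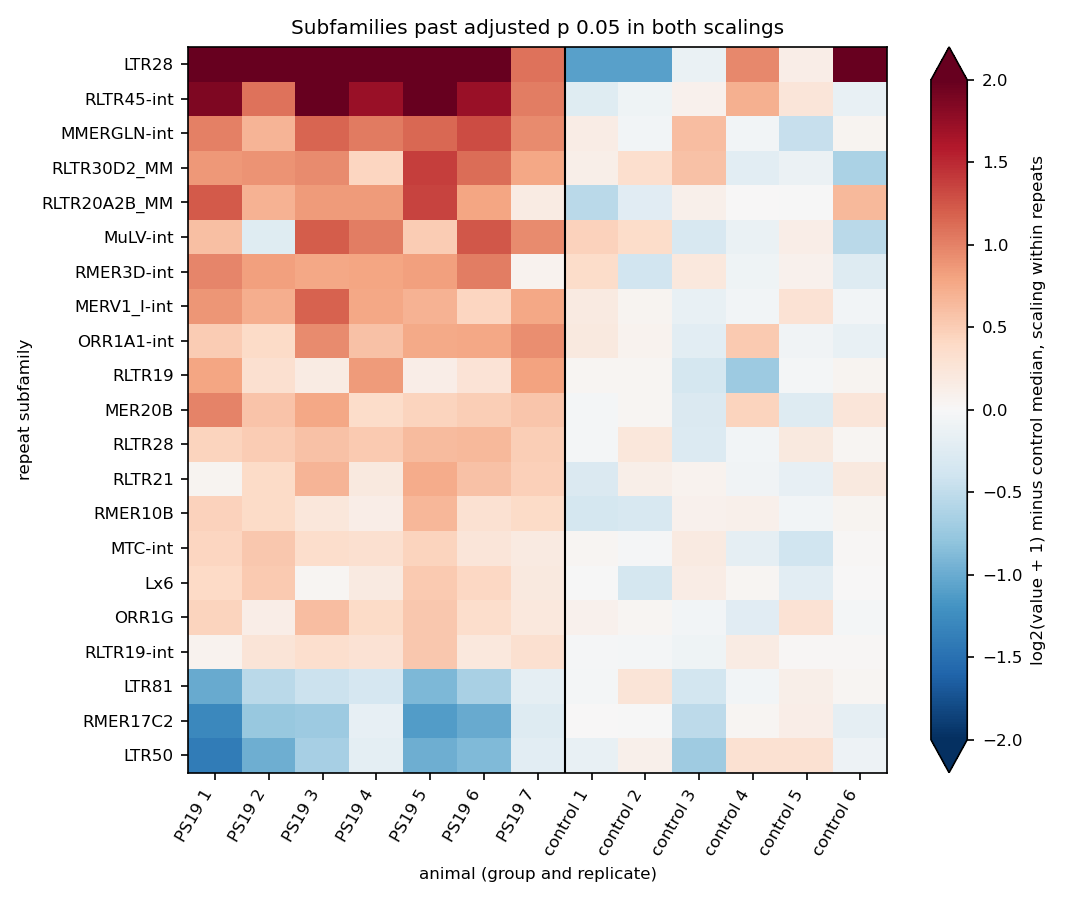
Level of the 21 subfamilies past the threshold in both scalings (y axis) in each animal (x axis), as log2(value + 1) minus the control median after scaling within repeats, with colours capped at 2 in either direction. The 18 upper subfamilies are red in nearly all PS19 animals, and the lower 3 are palest in PS19 replicates 4 and 7 and blue in control replicate 3.

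The number of calls varied with the animal left out. With the deposited scaling it was 87 without control replicate 3, 54 without PS19 replicate 4, 13, 14, 16, 20 and 23 without control replicates 4, 2, 5, 1 and 6, and 21, 19, 15 and 16 without PS19 replicates 2, 3, 5 and 6, against 35 with all. Within repeats it was 51 without control replicate 3, 10, 8, 15 and 9 without control replicates 1, 2, 4 and 5, and 20, 10, 6 and 8 without PS19 replicates 2, 3, 5 and 6, against 31 with all. With PS19 replicate 1 and control replicate 3, the libraries of highest signal, both left out, 61 and 37 passed. Tests on the recovered reads called 32 (edgeR, 4.17%) and 48 (DESeq2, 6.26%) on the deposited scaling and 27 (3.52%) and 59 (7.69%) within repeats, and edgeR in both scalings included all 21 subfamilies. When the 4-month samples shared the estimate of spread, 2 passed on the deposited scaling (0.261%), RLTR45-int and LTR28, and 22 within repeats (2.87%).

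Split by sample number, PS19 replicates 6 and 7 gave 6 calls against all controls on the deposited scaling (0.782%) and 7 within repeats (0.913%). The 6 were RLTR45-int (log2 fold change 1.38), MMERGLN-int (1.20), MuLV-int (1.22), ORR1A1-int (0.90), IAPEz-int (0.88) and IAPLTR1_Mm (1.10). PS19 replicates 1 to 5 against the same controls gave 16 calls (2.09%). RLTR45-int was at 2.09 there, MMERGLN-int at 1.15, MuLV-int at 0.81 and ORR1A1-int at 0.76, and all 4 passed. Within repeats, MuLV-int did not pass in replicates 1 to 5 (0.63, adjusted p 0.143) and ORR1A1-int did not in replicates 6 and 7 (0.78, adjusted p 0.0508), while RLTR45-int and MMERGLN-int passed in both sets. On the deposited scaling IAPEz-int, at 0.58 (adjusted p 0.0539), and IAPLTR1_Mm, at 0.51 (adjusted p 0.0890), did not. These 2 comparisons share their controls, and the difference between the sets of PS19 animals was not tested. The 3 lower calls had the same sign in both sets, with -0.43 and -0.54 for RMER17C2, -0.40 and -0.61 for LTR50 and -0.30 and -0.45 for LTR81 in replicates 6 and 7 and in replicates 1 to 5. With replicates 6 and 7 none of the 3 passed in either scaling. With replicates 1 to 5, RMER17C2 and LTR50 passed in both and LTR81 within repeats (adjusted p 0.0147).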

How the data were processed

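Spinal cord poly(A) libraries of 7 PS19 and 6 control mice of 9 months were compared. The deposited values are a signal that the authors scaled by 1 size factor per sample, as the values show. Trimmomatic, STAR, DESeq2 and mm10 are listed in the submitters' processing notes. Versions, the repeat annotation, how reads with many matches were assigned and what set the size factors: not given in the sources used here. Near-identical subfamilies may share reads. Dividing by the value of 1 read gave whole numbers (tolerance 0.1 percent) in 100 percent of values, the recovered reads. Of 1135 subfamilies, 368 with a mean under 10 were left out. log2(value + 1) was fitted with limma 3.58.1 (R 4.3.3, mean-variance trend, Benjamini-Hochberg adjustment, threshold 0.05), with edgeR 4.0.16 and DESeq2 1.42.0 on recovered reads as alternatives; fold changes on this scale are understated for low subfamilies. Sums and ratios were compared by exact permutation of 1716 assignments. Fits were tested on simulated reads. Named were all subfamilies past the threshold in both scalings, per scaling the first 10 by p in each direction and the first 4 by fold with a mean of at least 50, a list of well-known mouse elements (of which GSAT_MM and SYNREP_MM were under the filter and 3 L1 names not in the table) and the 3 most abundant of each class. Others named were chosen after their values were seen. Members, lists and tests were chosen with earlier results of these data known. Replicate numbers follow sample order and pair no animals. No label says that samples are separate animals, so p-values measure the spread between these samples, called animals here.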

Additional observations from a re-analysis of the deposited data

Results flagged for a closer look

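In 15 of 138 groups of values examined, a single animal stood far from the rest of its group, where chance gives about 1 in 20, and values of 1 animal are not independent. Control replicate 3 was highest in total repeat signal, at 462762 normalized reads against 370990 to 405167 in the other controls, in B1_Mus1 (13050 against 10640 to 11389), in L1Md_T (1523 against 810 to 1045) and in RLTR45 (106 against 48.4 to 64.2). PS19 replicate 1 was highest in its group in B1_Mus1 (15730 against 10772 to 12770), B2_Mm1a (2448 against 1428 to 1779), B2_Mm2 (12676 against 6859 to 8995), MER20B (135 against 56.1 to 85.6), MMERVK10C-int (241 against 72.4 to 138.0) and RLTR19 (119.8 against 57.3 to 83.3). These 2 libraries had the highest repeat signal of their groups. Control replicate 2 was highest in ID_B1 (27561 against 20687 to 22675) and L1Md_A (5350 against 3345 to 3855). Control replicate 5 was lowest in IAPLTR1a_Mm (77.9 against 133 to 164), control replicate 6 highest in LTR28 (8.06 against 0 to 2.84), and PS19 replicate 2 highest in RLTR51A_Mm (1342 against 1036 to 1117).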

How the results depend on the processing

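No paired analysis was possible because the labels name no litter and do not say which animals belong together. On the deposited scaling, 35 subfamilies passed. The count became 8 without a mean-variance trend, 120 with sample weights, 2 in the fit of all 23 samples, 7 at a threshold of 0.01, 6 and 16 with PS19 replicates 6 and 7 or 1 to 5 alone, and 61 without PS19 replicate 1 and control replicate 3, a setting chosen after seeing the data. Leaving out 1 animal gave 13 to 87. Within repeats, 31 passed. That became 19 with no filter, 12 without a trend, 59 in DESeq2, 5 at 0.01, 7 and 16 in the sets of PS19 animals, and 6 to 51 with 1 animal left out. Where a setting removed animals, fewer samples entered the fit, and the counts rose in some of these settings and fell in others. Why the counts changed was not tested. The log2 ratio of total repeat signal was 0.10 to 0.19 with 1 animal left out. It passed without PS19 replicate 4 (exact p = 0.0346) and without control replicate 3 (exact p = 0.0164). Leaving out either of these, the lowest PS19 and the highest control, necessarily widens the difference. Of the 68 subfamilies named by the rules above, none past the threshold changed sign under any alternative run. For the others named here, signs were not compared across the alternatives. Reads were few for LTR28, MER57-int, RLTR30D_RN, RLTR16C_MM and MTE2a-int, among others.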

Other observations

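As a share of repeat signal, 3 families, CR1, ERVL and TcMar-Tigger, were below the control median in every PS19 animal. CR1 elements, ancient LINEs, made up 1.28% ± 0.12 (SD, n = 7) of the signal in PS19 and 1.42% ± 0.05 (SD, n = 6) in control (two-sided exact permutation p = 0.0140, adjusted 0.199 over 19 shares), and 0 of 7 PS19 values exceeded the control median. Their sum in normalized reads was 5688 ± 325 against 5745 ± 330 (exact p = 0.754). ERVL elements made up 2.75% ± 0.09 against 2.91% ± 0.11 (exact p = 0.0210, adjusted 0.199), with 0 of 7, and their sum was 12288 ± 1037 against 11735 ± 560 (exact p = 0.288). TcMar-Tigger DNA transposons made up 1.07% ± 0.04 against 1.14% ± 0.07 (exact p = 0.0530, adjusted 0.226), also with 0 of 7, and their sum was 4812 ± 547 against 4606 ± 500 (exact p = 0.490). No share passed after adjustment. In normalized reads, 7 of 7 PS19 values exceeded the control median for ERVK (57825 ± 6026 against 47546 ± 4128, exact p = 0.00932, adjusted 0.116), class LTR (130563 ± 10942 against 113549 ± 8378, exact p = 0.0122, adjusted 0.116), hAT-Tip100 DNA transposons (1287 ± 58.6 against 1190 ± 69.6, exact p = 0.0204, adjusted 0.125) and class Unknown (exact p = 0.0693, adjusted 0.246). The hAT-Tip100 share was 0.289% in PS19 and 0.295% in control, with 2 of 7 above the control median (exact p = 0.525). No sum passed after adjustment. Class LTR includes ERVK, and ERVK includes IAPEz-int, which alone held 12003 to 25010 normalized reads in PS19 and 8247 to 14730 in control. The sums without IAPEz-int were not tested.

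Of the 368 subfamilies under the filter, 71 had 0 reads in all 13 samples and so could not separate. On the deposited scaling the groups separated without overlap in 0 of the 368, beside 12 of the 767 tested (1.56%). Low values make such separation less likely, so the 0 does not show that these subfamilies were alike between groups.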
